A study of Homo sapiens with 27 samples.

Results

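The 10 genes described here are ATF4, 7 further transcription factors of the basic leucine zipper (bZIP) family (ATF3, ATF5, JDP2, CEBPB, CEBPG, DDIT3 and NFE2L2), the small chromatin-binding protein NUPR1 and the pseudokinase TRIB3. They were chosen by name from the 27115 genes listed for each library, as ATF4, its known or candidate partners and TRIB3. The rule used no measured value, although the choice was made with earlier results of these data known. NUPR1 and TRIB3 carry no bZIP domain, so the bZIP name covers 8 of the 10. RNA was measured in 27 libraries from the diffuse large B-cell lymphoma (DLBCL) lines Karpas422, OCI-Ly1 and HBL1, to ask which transcripts change when SIRT3, a mitochondrial deacylase, is depleted. Each line carried shCTRL (a scramble hairpin), shSIRT3-1 or shSIRT3-2, with 3 replicates of each, and RNA was taken on day 8. All hairpins came from a pLKO.1 lentiviral vector that also encodes puromycin resistance and YFP, so the control libraries share the infection and the vector. OCI-Ly1 was kept in Iscove's medium and the other lines in RPMI, so a difference between OCI-Ly1 and the others cannot be told apart from one between media. The labels do not say whether replicates were separate cultures, and the p-values therefore measure only the spread between these samples.

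ATF4 is the main transcriptional effector of the integrated stress response, in which phosphorylation of the initiation factor eIF2α lowers general protein synthesis while ATF4 mRNA is translated more efficiently. ATF4 binds DNA as a heterodimer with other bZIP proteins, in particular C/EBP family members, at composite C/EBP-ATF response elements in genes of amino acid supply, tRNA charging and stress signalling. Several of its partners are also its targets, and TRIB3, another target, binds ATF4 and dampens its activity.

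The response element was therefore looked for around the start sites of the genes. In 500 bases on either side of the start of the canonical transcript (GRCh37, the hg19 sequence to which the authors aligned, with GENCODE gene models), the letters TGATGNAA occurred on either strand in 6 of the 10 genes. They occurred in 7.38% of 18191 protein-coding windows of the same length. All 9 matches in the 6 genes read TGATGCAA on one strand or the other. The 30 bases around them are printed on the strand of the gene, with the matched letters in capitals. The search fixed all of these letters except the N, so their likeness comes mostly from the search. Positions in brackets are those of the first matched letter relative to the start. The 30-base stretches lie at chr1:212782071-212782100 and chr1:212781889-212781918 (ATF3, plus strand, −21 and −203), chr12:57914585-57914614 (DDIT3, minus strand, −306), chr19:33864966-33864995 (CEBPG, plus strand, 363), chr16:28550368-28550397 (NUPR1, minus strand, −91), chr14:75894698-75894727 (JDP2, plus strand, −16) and chr20:361525-361554 (TRIB3, plus strand, 133).
ATF3 proximal match: tataaaaggggTGATGCAAcgctctccaag
ATF3 distal match: cctccccgaacTTGCATCAccagtgccccc
DDIT3 match: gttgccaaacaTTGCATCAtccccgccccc
CEBPG match: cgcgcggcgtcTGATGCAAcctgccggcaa
NUPR1 match: aaggggccagaTTGCATCAgacagggcctg
JDP2 match: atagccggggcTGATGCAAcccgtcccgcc
TRIB3 match: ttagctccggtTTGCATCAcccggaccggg
In TRIB3 the same 30 bases occurred 3 times, 33 bases apart, within the transcribed region. ATF4, ATF5, CEBPB and NFE2L2 had no match in this window. The cyclic AMP response element TGACGTCA was in 0 of the 10 windows against 3.46% of all windows, the AP-1 letters TGANTCA in 3 (ATF4, ATF5 and DDIT3) against 15.1%, and the antioxidant element TGACNNNGC in 1 (CEBPB) against 34.3%. A match is a description of sequence and does not show binding. Among 26 ATF4 target genes with a window under the same gene symbol, from the hand-written list described further on, 13 held TGATGNAA.

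On the same build, the genes are spread over several chromosomes. ATF4 is at chr22:39915700-39918688, ATF5 at chr19:50431959-50437192, CEBPG at chr19:33864591-33873592, ATF3 at chr1:212738676-212794119 and JDP2 at chr14:75894419-75940814, all on the plus strand. CEBPB at chr20:48807367-48809205 and TRIB3 at chr20:343479-378203 are on the plus strand too. DDIT3 at chr12:57910371-57915520, NUPR1 at chr16:28544029-28550329 and NFE2L2 at chr2:178083395-178257484 are on the minus strand.

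The deposited values are named FPKM but are whole multiples of a single step in each library, so they were read as CPM (reads of a gene relative to the library total used by the authors), which are not divided by transcript length. Levels are therefore compared between samples and not between genes. Between 28694398 and 53405456 reads per library lay on genes. SIRT3 was lower in all 18 knockdown libraries than in any control of the same line. Over the 3 lines its log2 fold change was −2.45 with shSIRT3-1 and −1.37 with shSIRT3-2, and shSIRT3-2 left more SIRT3 mRNA than shSIRT3-1 (log2 difference 1.08, standard error 0.17, adjusted p = 4.6e-05). The B cell markers MS4A1 (144 to 740 CPM), CD79A (136 to 668 CPM), CD79B (255 to 691 CPM) and PAX5 (136 to 608 CPM) were present in every library. Over the 3 lines their log2 fold changes lay between −0.55 and 0.45, under the 1.5-fold threshold used for calls. Within lines some of them moved. With shSIRT3-2, PAX5 and MS4A1 were called lower in Karpas422 (−0.87 and −0.86) and in HBL1 (−1.07 and −0.72), while CD79A was called lower in Karpas422 (−0.67) and higher in HBL1 (0.69). With shSIRT3-1, PAX5 was called lower in HBL1 (−1.27) and CD79A (0.85) and CD79B (0.70) higher, and MS4A1 was called higher in OCI-Ly1 (1.10). The part of these differences in the results was not tested. The 5 myeloid markers summed to at most 1.08 CPM, with S100A8 and S100A9 at 0 in every library. T cell markers summed to at most 0.109 CPM in OCI-Ly1 and HBL1, but in Karpas422 to between 37.5 and 43.3 CPM with shCTRL, 18.5 and 31.7 with shSIRT3-1 and 30.4 and 40.2 with shSIRT3-2. Most of this was CD3G, with CD7 at 0, and the part of these transcripts in the Karpas422 results was not tested. As in any bulk measurement, fewer cells of a type and less RNA per cell cannot be told apart.

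A single control library stood apart for these genes. In OCI-Ly1 shCTRL replicate 2, all 9 genes at 1 CPM or more were higher than in both other OCI-Ly1 controls, 7 of them by more than 2-fold. Among 11325 genes at 1 CPM or more in an OCI-Ly1 control, 4412 were higher than in both other controls and 1.55% were more than 2-fold higher. ATF3 was 13.2-fold, CEBPB 9.11-fold, TRIB3 6.16-fold, DDIT3 5.82-fold and ATF5 5.0-fold higher than the mean of the other controls, against 2.32-fold for ATF4 and 1.59-fold for NFE2L2. Of 27 ATF4 target genes at that level, 21 were also more than 2-fold above both other controls, whereas 0 of 10 upstream genes of the integrated stress response and 0 of 16 NFE2L2 targets were. By its whole profile the library belonged with OCI-Ly1 (r of 0.985 across genes with the mean of the other OCI-Ly1 libraries, 0.775 with that of Karpas422 and 0.723 with that of HBL1). The cause was not tested, and several results that rest on this library, but not all, are given with and without it. A further library, HBL1 shSIRT3-1 replicate 3, had 692 genes above and 927 below both other replicates by more than 2-fold. Leaving it out changed none of the member counts over the 3 lines or in HBL1.

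Averaged over the 3 lines, depletion of SIRT3 was accompanied by lower levels of 8 of the 10 genes. Over the 3 lines, in a linear model (limma) with terms for line and hairpin on log2(CPM + 0.1), 9 genes were tested and NUPR1 fell below the filter of 1 CPM in 3 libraries. Calls needed both an adjusted p (Benjamini-Hochberg over all genes) under 0.05 and a change of more than 1.5-fold. ATF4, ATF3, ATF5, JDP2, CEBPB, CEBPG, DDIT3 and TRIB3 were called lower with shSIRT3-1, where 9.09% of all 13076 genes tested were called lower, and with shSIRT3-2, where 10.2% were. The same 8 genes were thus called lower with both hairpins, against 3.98% of all genes, and 0 were called higher. The median log2 fold change of the 9 genes tested was −1.78 and −1.86, beside −0.05 and −0.03 over all genes tested. The comparisons share their control libraries. Without OCI-Ly1 shCTRL replicate 2 the counts were still 8, 8 and 8. In OCI-Ly1 alone, 0 of 8 genes tested were called with either hairpin, beside 2.45% and 4.26% of all genes called lower. A call over the 3 lines therefore does not show a fall in each line.

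**Figure D1:**
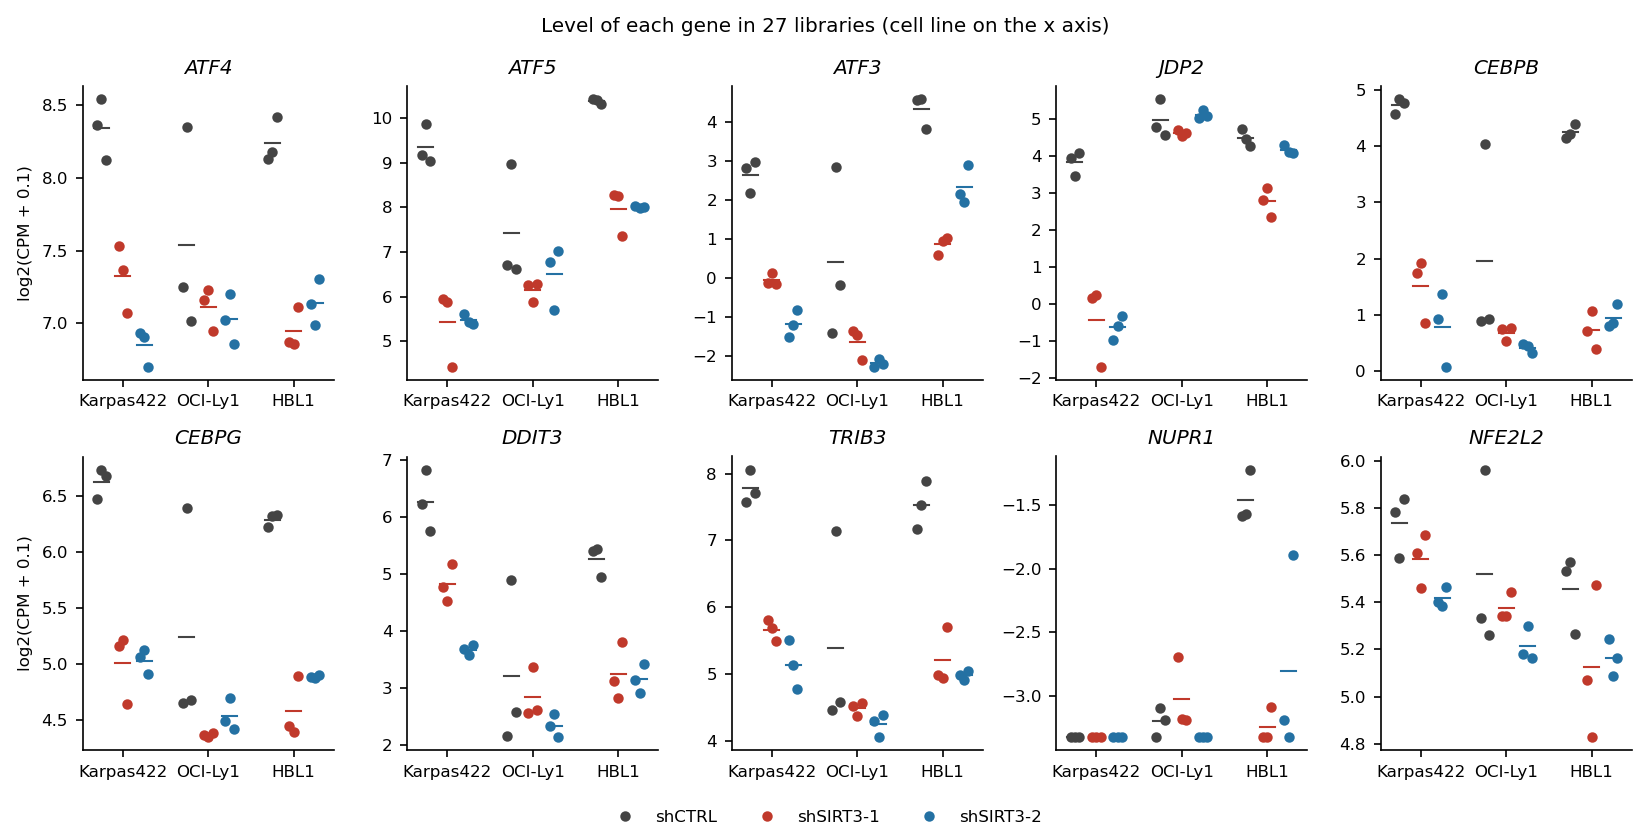
Level of each of the 10 genes as log2(CPM + 0.1) in the 27 libraries, 1 point per library, by line (x axis) and hairpin (colour), with a horizontal line at the mean of 3 replicates. In Karpas422 and HBL1 the control points of most genes lie above all knockdown points, and in OCI-Ly1 a single control point lies above the rest for each gene except NUPR1, which had at most 6 reads there.

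ATF4 itself was lower at the mRNA level in the fit of the 3 lines. In Karpas422 its values were 329, 372 and 278 CPM with shCTRL, 185, 165 and 134 with shSIRT3-1, and 122, 120 and 104 with shSIRT3-2. In HBL1 they were 280, 289 and 342 CPM with shCTRL, 117, 116 and 138 with shSIRT3-1, and 140, 127 and 158 with shSIRT3-2. Control and knockdown libraries did not overlap in either line. In OCI-Ly1 the controls gave 152, 326 and 129 CPM, and the knockdown libraries between 116 and 150 CPM, within or just below the lower control values. The log2 fold change over the 3 lines was −0.91 with shSIRT3-1 (standard error 0.15, adjusted p = 5.3e-05) and −1.03 with shSIRT3-2 (standard error 0.15, adjusted p = 1.4e-05). These were the smallest changes among the 8 genes called, for either hairpin. By qPCR, the paper instead reported unchanged ATF4 mRNA in OCI-Ly1 and Karpas422 cells, at days before the day 8 used here. The reason for the difference in Karpas422 was not tested.

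ATF5, a paralogue of ATF4 that is likewise controlled by upstream open reading frames and acts in the mitochondrial stress response, changed by more. Its control values were 576, 935 and 524 CPM in Karpas422 and 1370, 1350 and 1280 CPM in HBL1. With shSIRT3-1 they were 61.6, 59.2 and 21.5 CPM in Karpas422 and 312, 305 and 165 CPM in HBL1. With shSIRT3-2 they were 48.7, 43.2 and 41.7 CPM in Karpas422 and 263, 253 and 258 CPM in HBL1. Every knockdown library was far below the lowest control of its line. The log2 fold change was −3.93 (95% confidence interval −4.75 to −3.12, adjusted p = 0.00015) and −3.88 (−4.69 to −3.07, adjusted p = 0.00014) in Karpas422, and −2.42 (−2.91 to −1.92, adjusted p = 0.00016) and −2.37 (−2.87 to −1.87, adjusted p = 0.00018) in HBL1. In OCI-Ly1 the controls were 104, 504 and 97.9 CPM and the knockdown libraries ranged from 52.2 to 130 CPM, so the groups overlapped. The HBL1 knockdown libraries, at 165 CPM or more, were all above the knockdown libraries of Karpas422 and OCI-Ly1. In the GENCODE gene models, ATF5 exons overlap those of NUP62 and IL4I1 on the opposite strand by up to 305 and 75 bases. The authors counted reads on RefSeq genes, whose overlaps were not examined, and the strand setting of the counting is not stated. Whether such pairs shared reads is therefore not known.

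ATF3 and JDP2, small bZIP proteins that act largely as repressors and stand next to the AP-1 family, were each called lower with both hairpins over the 3 lines. ATF3 was at 6.89, 4.38 and 7.72 CPM in Karpas422 controls, 0.825, 1.00 and 0.796 with shSIRT3-1, and 0.253, 0.334 and 0.466 with shSIRT3-2. In HBL1 the order of the hairpins was the reverse, with 23.5, 23.6 and 13.9 CPM in controls, 1.41, 1.84 and 1.94 with shSIRT3-1, and 4.33, 3.72 and 7.34 with shSIRT3-2. The hairpin groups did not overlap with each other or with the controls in these lines. Averaged over lines, ATF3 was lower by a log2 fold change of −2.73 with shSIRT3-1 (adjusted p = 9.2e-06) and of −2.80 with shSIRT3-2 (adjusted p = 8e-06), each with a standard error of 0.40. In OCI-Ly1, ATF3 was not tested because it passed 1 CPM in a single library, the control at 7.02 CPM. The other OCI-Ly1 libraries were at 0.109 to 0.786 CPM.

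JDP2 had the lowest p of the 9 genes in the test for a different response between lines. In Karpas422 it went from 15.2, 10.8 and 16.8 CPM in controls to 1.02, 1.08 and 0.212 with shSIRT3-1 and 0.415, 0.566 and 0.703 with shSIRT3-2. In HBL1 the controls were at 26.1, 21.9 and 19.1 CPM, the shSIRT3-1 libraries at 6.91, 8.74 and 5.02, and the shSIRT3-2 libraries at 19.3, 17.1 and 16.9. In OCI-Ly1 the controls were at 27.4, 45.8 and 23.5 CPM, the shSIRT3-1 libraries at 25.9, 23.0 and 24.3, and the shSIRT3-2 libraries at 32.3, 37.5 and 33.3. JDP2 therefore fell with both hairpins in Karpas422 (log2 fold change −4.25 and −4.44, adjusted p = 3e-04 and 2e-04), with shSIRT3-1 alone in HBL1 (−1.71, adjusted p = 0.00046, against −0.32 with an interval of −0.77 to 0.13, adjusted p = 0.24, for shSIRT3-2), and was called with neither in OCI-Ly1. Its fall over the 3 lines with shSIRT3-2 (−1.54, standard error 0.47, adjusted p = 0.012) rested on Karpas422. Without that line it was −0.08 (adjusted p = 0.80; adjusted p ranged from 0.0033 to 0.80 over the alternatives).

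CEBPB and CEBPG are C/EBP proteins that pair with ATF4 on the composite element. CEBPB was at 23.7, 28.3 and 27 CPM in Karpas422 controls and between 0.957 and 3.69 CPM in the 6 knockdown libraries of that line. In HBL1 it was at 17.5, 18.5 and 20.9 CPM in controls and between 1.22 and 2.19 CPM after knockdown. The levels reached after knockdown were close to those of the 2 lower OCI-Ly1 controls, 1.76 and 1.79 CPM, and the third OCI-Ly1 control was at 16.2 CPM. In OCI-Ly1 itself the knockdown libraries were at 1.15 to 1.60 CPM, all below all controls. In the fit of all libraries, CEBPB had log2 fold changes of −2.67 (standard error 0.36, adjusted p = 4.2e-06) and −2.92 (standard error 0.36, adjusted p = 1.6e-06). At the pseudocount of 0.1 the latter was the largest fall of the 9 genes with shSIRT3-2. It differed from that of ATF3 (−2.80) by less than the standard error, so the order of these genes is not settled. In the GENCODE models the antisense transcript CEBPB-AS1 overlaps CEBPB by up to 231 bases. Whether the pair shared reads in the RefSeq counts is not known.

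CEBPG, which lacks a strong activation domain and forms heterodimers with ATF4, had 88.5, 106 and 102 CPM in Karpas422 controls and 24.8 to 36.9 CPM after knockdown. In HBL1 it had 74.4, 79.4 and 80.0 CPM in controls and 20.9 to 29.7 CPM after knockdown. The OCI-Ly1 controls were at 24.9, 83.5 and 25.5 CPM and the knockdown libraries at 20.2 to 25.7 CPM. Thus 2 of 3 OCI-Ly1 controls were already at the level of knockdown cells of the other lines. In the fit of all libraries, CEBPG had log2 fold changes of −1.40 (standard error 0.17, adjusted p = 1.1e-06) and −1.24 (standard error 0.17, adjusted p = 6.6e-06).

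DDIT3, which encodes CHOP, the bZIP protein linked to cell death under prolonged endoplasmic reticulum stress, was at 75.0, 114 and 54.0 CPM in Karpas422 controls, 27.3, 22.9 and 36.3 with shSIRT3-1, and 12.8, 11.9 and 13.5 with shSIRT3-2. In HBL1 the controls were at 42.4, 43.2 and 30.7 CPM and the knockdown libraries at 7.05 to 13.9 CPM. In OCI-Ly1 the controls were at 4.38, 29.8 and 5.87 CPM and the knockdown libraries at 4.32 to 10.3 CPM. The control and knockdown libraries were separate in Karpas422 and HBL1 and overlapped in OCI-Ly1. Averaged over lines, DDIT3 was lower by a log2 fold change of −1.27 with shSIRT3-1 (adjusted p = 0.0014) and of −1.86 with shSIRT3-2 (adjusted p = 3.2e-05), each with a standard error of 0.295. The call with shSIRT3-1 was lost without HBL1 (−0.90, adjusted p = 0.087) and without the replicates numbered 2 (−0.83, adjusted p = 0.056), with adjusted p from 1.5e-05 to 0.087 over the alternatives. In the GENCODE models DDIT3 overlaps exons of MARS1 by up to 287 bases on the opposite strand, and whether the pair shared reads is not known.

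TRIB3, the pseudokinase with the tandem elements printed above, was at 191, 266 and 209 CPM in Karpas422 controls, 55.9, 51.2 and 44.8 with shSIRT3-1, and 45.4, 34.9 and 27.1 with shSIRT3-2. In HBL1 it was at 144, 184 and 238 CPM in controls and 29.8 to 52.0 CPM after knockdown. The OCI-Ly1 controls were at 21.8, 141 and 23.8 CPM and the knockdown libraries at 16.5 to 23.5 CPM. In the fit of all libraries, TRIB3 had log2 fold changes of −1.78 (standard error 0.27, adjusted p = 1.6e-05) and −2.11 (standard error 0.27, adjusted p = 2.1e-06). Of its paralogues, TRIB2 fell with shSIRT3-1 (−0.81, adjusted p = 0.021) and was at −0.61 with shSIRT3-2 (adjusted p = 0.077), and TRIB1 was at 0.53 and −0.20 and was not called. In HBL1 alone TRIB2 was called lower with both hairpins (−1.84 and −1.98) and TRIB1 with shSIRT3-2 (−0.72), whereas in Karpas422 TRIB1 was called higher with shSIRT3-1 (1.07).

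NFE2L2 (NRF2), the bZIP activator of antioxidant genes, was the gene tested that was not called. Its values lay between 28.3 and 62.3 CPM in all 27 libraries. The log2 fold change over the 3 lines was −0.21 (95% confidence interval −0.38 to −0.03, adjusted p = 0.053) with shSIRT3-1 and −0.30 (−0.48 to −0.13, adjusted p = 0.0064) with shSIRT3-2, the latter past the p threshold but under the 1.5-fold threshold. Control and knockdown libraries overlapped in each of the 3 lines. In the GENCODE models its exons overlap those of HNRNPA3 by up to 3225 bases on the opposite strand. Whether that pair shared reads in the RefSeq counts is not known.

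NUPR1, a stress-induced chromatin protein, was close to absent. It had 0 reads in all 9 Karpas422 libraries, where a count of 0 allows up to 3 reads in each, and had at most 6 reads in any OCI-Ly1 library. In HBL1 controls it had 23, 15 and 30 reads (0.233, 0.236 and 0.328 CPM). With shSIRT3-1 it had 0, 0 and 2 reads, and with shSIRT3-2 1, 0 and 18 reads. The highest knockdown library, with 18 reads, was at 0.169 CPM. In CPM all 6 HBL1 knockdown libraries were thus below all HBL1 controls, where 17.2% of the genes tested in that line were, but the reads of that library and of the control with 15 reads overlap. NUPR1 was too low to enter the fit.

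Each line was also fitted alone. In Karpas422, 8 of the 9 genes tested were called lower with shSIRT3-1 (11.5% of all genes) and 8 with shSIRT3-2 (9.44%). These counts include ATF3 and JDP2, whose Karpas422 knockdown libraries were at 0.253 to 1.00 CPM and 0.212 to 1.08 CPM. Both passed the filter of 1 CPM only through the controls, the group where they are high. In HBL1, 8 were called lower with shSIRT3-1 (18.8% of all genes) and 7 with shSIRT3-2 (16%), with JDP2 and NFE2L2 not called. Over 11 alternatives the HBL1 count with shSIRT3-2 was between 5 and 7. There the ATF3 call was lost without the replicates numbered 1 (adjusted p = 0.067) or 2 (0.062), with adjusted p from 4.8e-06 to 0.067 over the alternatives. The DDIT3 call in HBL1 was lost without the replicates numbered 1 with either hairpin (adjusted p = 0.051 and 0.053, the highest over the alternatives, the lowest being 2e-06 and 2.6e-06). In OCI-Ly1, 0 of 8 genes tested were called with either hairpin by limma, beside 2.45% and 4.26% of all genes called lower. At an unadjusted p under 0.05 there were 2 (ATF5 and CEBPG) and 1 (CEBPB), and edgeR called 0 and 0. SIRT3 itself was called lower in OCI-Ly1 with both hairpins (−2.78, adjusted p = 0.0024, and −1.08, adjusted p = 0.035).

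The intervals in OCI-Ly1, with the control replicate described above among the libraries, were wide. For ATF4 the log2 fold change was −0.42 (95% confidence interval −1.06 to 0.22) with shSIRT3-1 and −0.51 (−1.15 to 0.14) with shSIRT3-2. For TRIB3 it was −0.91 (−2.17 to 0.36) and −1.14 (−2.41 to 0.12). Without that control, ATF4 was at −0.02 and −0.10 and TRIB3 at −0.03 and −0.27, and DDIT3 with shSIRT3-1 moved from −0.36 to 0.49. The number of genes called stayed at 0 with each hairpin. Among the genes tested in each line, all 6 knockdown libraries lay below the 3 controls for 8 genes in Karpas422 (16.1% of all genes), 7 in HBL1 (17.2%) and 1, CEBPB, in OCI-Ly1 (7.33%). The 8 in Karpas422 include ATF3 and JDP2, which passed the filter there only through the controls.

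**Figure D2:**
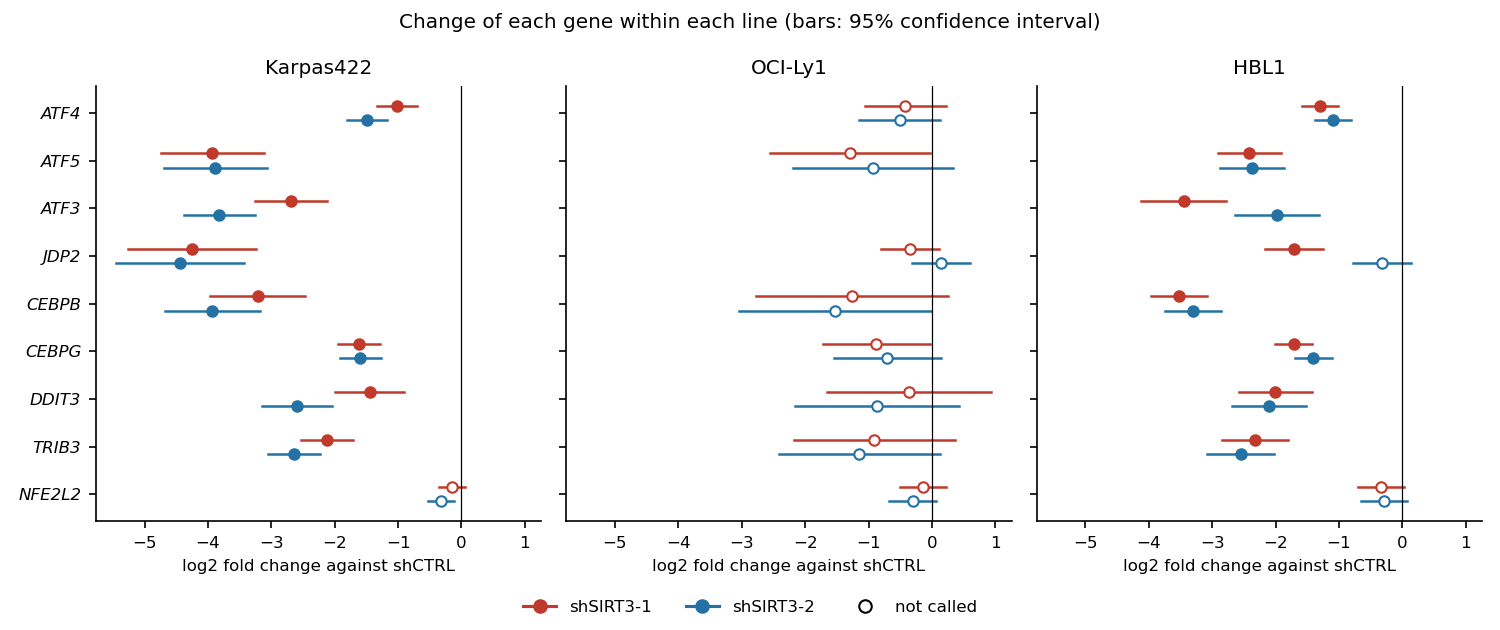
Log2 fold change against shCTRL of the genes tested in each line (x axis) by gene (y axis) and hairpin (colour), with 95% confidence intervals and filled points for genes called. All intervals of the 8 genes called in Karpas422 lie below 0, whereas in OCI-Ly1 no point is filled.

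**Figure D3:**
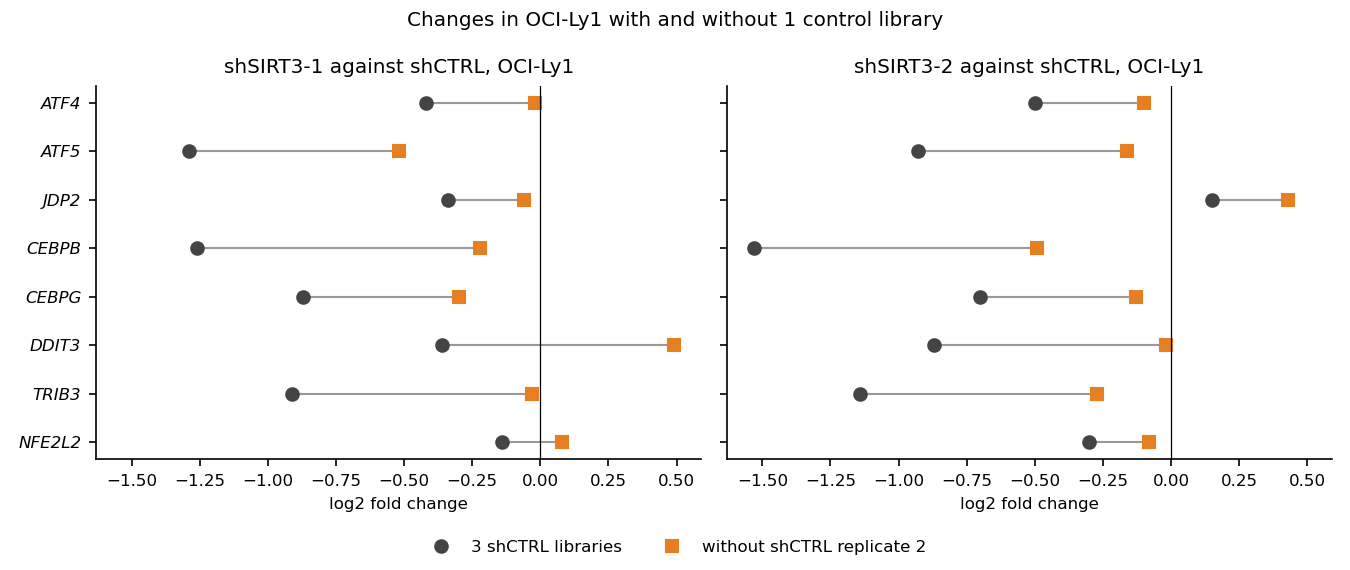
Log2 fold change in OCI-Ly1 (x axis) of the 8 genes tested (y axis) with all 3 shCTRL libraries (circles) and without shCTRL replicate 2 (squares), for each hairpin. For shSIRT3-2 every gene except JDP2 moves toward 0 when the library is left out, JDP2 going from 0.15 to 0.43.

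A different response between lines was looked for with limma's F test of line by hairpin interaction. It was called for 4 of the 9 genes, ATF4 (adjusted p = 0.041), ATF5 (0.0096), CEBPB (0.033) and JDP2 (2.5e-06), where 41.8% of all genes were called, so the share of these genes is close to the background. Without OCI-Ly1 shCTRL replicate 2 it was called for 8, all but NFE2L2, with adjusted p between 2e-06 and 0.00019, where 44.4% of all genes were called, and edgeR called 2 with all libraries. Of the 9 genes, JDP2 alone was called in every alternative run, with adjusted p from 1.4e-07 to 0.019.

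The hairpins were also compared directly. Although shSIRT3-2 left more SIRT3 mRNA, limma called 0 of the 9 genes between shSIRT3-2 and shSIRT3-1 over the 3 lines, beside 11.3% of all genes. There were 0 at an unadjusted p under 0.05, and edgeR called 0. The 95% confidence interval of the log2 difference was −0.44 to 0.20 for ATF4, −0.89 to 0.23 for TRIB3 and −0.19 to 0.52 for CEBPG. It was wider for ATF3 (−0.89 to 0.75), DDIT3 (−1.19 to 0.02) and JDP2 (−0.40 to 1.53). For ATF5 it was −0.59 to 0.89, and for CEBPB −0.996 to 0.492. For NFE2L2 it was −0.27 to 0.08. The intervals of ATF4, CEBPG and NFE2L2 stayed within a 1.5-fold difference and those of the other 6 genes did not. Within lines, in comparisons added after the values were seen, ATF3 (−1.13, adjusted p = 0.013) and DDIT3 (−1.15, adjusted p = 0.011) were lower with shSIRT3-2 in Karpas422, where 11.5% of genes were called. In HBL1, ATF3 (1.47, adjusted p = 0.0062) and JDP2 (1.39, adjusted p = 0.0017) were higher with shSIRT3-2, where 27.9% were called, and 2 of 9 genes is below that share. Without the replicates numbered 1, 0 were called in Karpas422 and 0 in HBL1. In OCI-Ly1, limma called 0 of 8, beside 4.68% of all genes, with 1 (JDP2) at an unadjusted p under 0.05 and 0 by edgeR. ATF3 thus moved in opposite directions between the hairpins in Karpas422 and HBL1, and the difference between these differences was not tested.

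Control cells were also compared between lines. Compared with OCI-Ly1 controls, 6 of the 9 genes tested were called higher in HBL1 (ATF3, ATF5, DDIT3, CEBPB, CEBPG and TRIB3). There 3727 of all 12607 genes were called higher, and 54.6% were called in either direction. In Karpas422 the same 6 and ATF4 were called higher and JDP2 lower. There 3560 of all 12607 genes were called higher and 2847 lower, 50.8% in either direction. Over 11 alternatives the calls of ATF3 and ATF5 in HBL1 and of DDIT3 and JDP2 in Karpas422 held in each, and the other calls were lost in at least 1. The adjusted p in Karpas422 reached 0.19 for ATF4, 0.25 for ATF3 and 0.073 for ATF5, and edgeR called 3 genes in HBL1 and 6 in Karpas422. DDIT3 was higher by 3.06 in Karpas422 (standard error 0.58, adjusted p = 0.00097) and by 2.05 in HBL1 (standard error 0.58, adjusted p = 0.0098), and CEBPB by 2.77 (adjusted p = 0.0039) and 2.30 (adjusted p = 0.010), all in log2 units. Without OCI-Ly1 shCTRL replicate 2 these differences were 3.90 and 2.89 for DDIT3 and 3.81 and 3.34 for CEBPB. Over all 11 alternatives the HBL1 difference ranged from 1.45 to 2.89 for DDIT3 (adjusted p from 1.9e-05 to 0.098) and from 1.49 to 3.36 for CEBPB (4.4e-08 to 0.14). Between HBL1 and Karpas422 controls, with 54.6% of all genes called, JDP2 was called (0.66 higher in HBL1, adjusted p = 0.037, from 0.0099 to 0.16 over the alternatives). The JDP2 call was lost with the replicate block. Without that OCI-Ly1 control, which enters the shared variance, ATF3, ATF5 and DDIT3 were called as well.

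The genes also varied together. Over the 27 libraries, with values centred on the mean of each line, the 36 pairs of the 9 genes tested had a Pearson r between 0.39 and 0.97 with a median of 0.88, highest for CEBPB and TRIB3 and lowest for JDP2 and NFE2L2. Without OCI-Ly1 shCTRL replicate 2, r was 0.964 for CEBPB and TRIB3 and 0.411 for JDP2 and NFE2L2. The points share hairpin groups and library depth, and the values describe these libraries only. When values were centred on each line and hairpin group, which leaves only differences among replicates, the median r was 0.67 and CEBPG and TRIB3 had the highest value of 0.92. Without OCI-Ly1 shCTRL replicate 2 the median r was 0.14 and the highest 0.63 (ATF4 and CEBPG). With that library 27 of the 36 pairs had an r over 0.5, and without it 4 had. In Karpas422 controls, replicate 2 had the highest level of 6 genes (ATF4, ATF5, DDIT3, CEBPB, CEBPG and TRIB3) and the lowest of ATF3, JDP2 and NFE2L2.

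**Figure D4:**
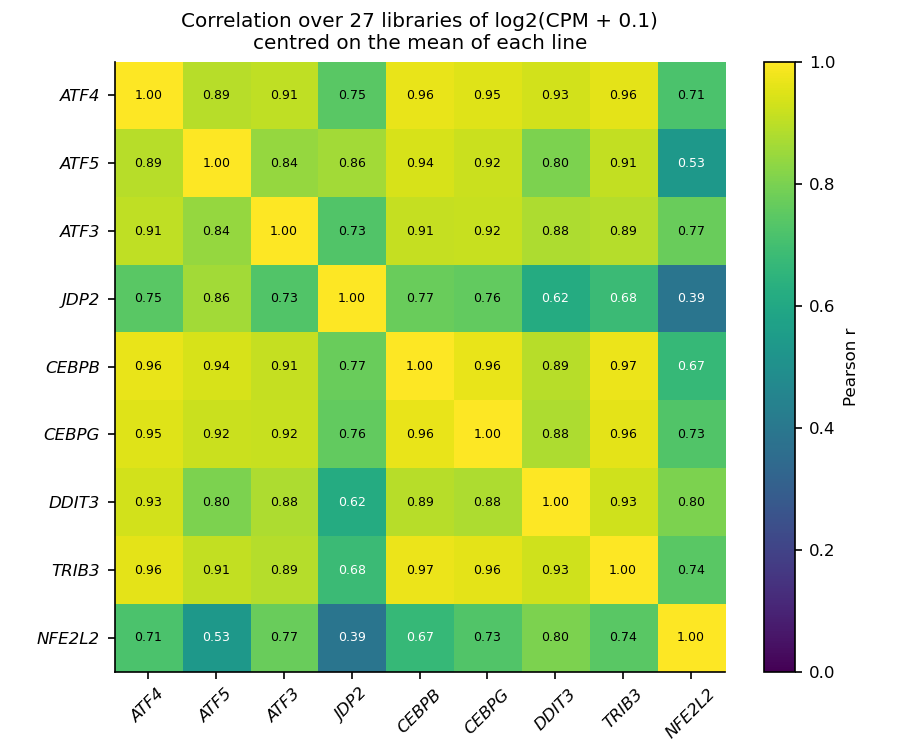
Pearson r (colour and number) between each pair of the 9 genes tested over 27 libraries, on log2(CPM + 0.1) centred on the mean of each line. ATF4, CEBPB, CEBPG and TRIB3 form a block with r of at least 0.95, and JDP2 and NFE2L2 have the lowest values.

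Outside the 10 genes, the genes whose pattern was most like ATF4 were XPOT (r = 0.969), a tRNA exporter, INHBE (0.966), an inhibin subunit, and SPNS3 (0.964). For TRIB3 they were SPNS3 (0.984), RNF187 (0.980) and TSEN15 (0.976). For CEBPG they were EIF1 (0.969), an initiation factor, and ULBP1 and SESN2 (0.966 each). For DDIT3 they were CEBPB-AS1 (0.935), INHBE (0.931) and EIF1 (0.922). CEBPB-AS1 overlaps CEBPB, one of the 10 genes, in the GENCODE models, and whether they share reads is not known. These r values are descriptions over 27 libraries that share hairpin groups, and without OCI-Ly1 shCTRL replicate 2 each was between 0.904 and 0.980.

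The wider pathway was read from hand-written gene lists, which were made with earlier results of these data known. Of 30 ATF4 target genes, 28 were tested over the 3 lines, where 9.09% (shSIRT3-1) and 10.2% (shSIRT3-2) of all genes were called lower. Of these 28 targets, 26 were called lower with shSIRT3-1 and 27 with shSIRT3-2, with 0 higher. Their median log2 fold change was −1.71 and −1.48, beside −1.78 and −1.86 for the 9 of the 10 genes tested. Without the replicates numbered 2 the count with shSIRT3-2 was 16. CHAC1, a glutathione-degrading enzyme, changed most (−3.74, adjusted p = 2.8e-06, and −4.25, adjusted p = 7.2e-07), followed by the glycine transporter SLC6A9 (−3.59 and −3.95), INHBE (−3.34 and −3.96) and CTH, which makes cysteine (−2.95 and −3.11). PSAT1 of the serine pathway was at −2.47 and −2.58 and was called lower with both. ALDH18A1 was the target tested that was called with neither hairpin (0.05 and 0.18). In OCI-Ly1 alone, 0 and 4 of 26 tested targets were called lower, against 24 and 22 of 26 in Karpas422 and 26 and 24 of 27 in HBL1. Of all genes, 2.45% and 4.26% were called lower in OCI-Ly1, 11.5% and 9.44% in Karpas422 and 18.8% and 16% in HBL1. The OCI-Ly1 target counts include shCTRL replicate 2, in which most targets were high, and are not given without it.

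Lists that neighbour ATF4 in the pathway were counted in the same way, beside 9.09% and 10.2% of all genes called lower and 3.98% called lower with both hairpins. Of 10 upstream genes of the integrated stress response, 1 was called lower with shSIRT3-1 (the kinase EIF2AK4, known as GCN2, −0.60, adjusted p = 0.00055), 2 with shSIRT3-2 (the phosphatase subunit PPP1R15A, −0.71, adjusted p = 0.0038, and IMPACT, a GCN2 inhibitor, −0.75, adjusted p = 1.4e-06) and 0 with both, counts near those shares. Of 6 CHOP target genes, 2 were called lower with each hairpin and 1 with both, BBC3, which encodes the pro-death protein PUMA (−0.94, adjusted p = 0.0031, and −1.12, adjusted p = 0.00072). Of 16 tested NFE2L2 targets, 1 was lower and 3 higher with shSIRT3-1, and 3 were higher with shSIRT3-2, beside 3.92% and 3.29% of all genes called higher. The 2 higher with both, where 1.1% of all genes were, were the peroxidase PRDX1 (0.82 and 1.04) and the ferritin light chain FTL (0.72 and 0.86).

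Of 35 tested bZIP factors outside the 10 genes, 6 were called lower and 1 higher with shSIRT3-1, and 7 lower with shSIRT3-2. Among all genes, 9.09% and 10.2% were called lower, and 3.98% with both hairpins. The 6 lower with both included NFE2L1, the bZIP regulator of proteasome genes (−1.50, adjusted p = 2e-06, and −1.39, adjusted p = 5.6e-06), BATF3 (−1.16 and −1.27), XBP1, an effector of the unfolded protein response (−0.83 and −1.01), and NFIL3 (−0.88 and −0.66). Chosen after their values were seen, the AP-1 members JUN (0.09 and 0.52), FOS (1.14 and 0.58) and JUNB (0.00 and −0.20) were not called. The median of this list was −0.11 and −0.15, close to that of all genes. Its share called lower with both hairpins, 6 of 35, was above the 3.98% of all genes, and this difference was not tested.

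**Figure D5:**
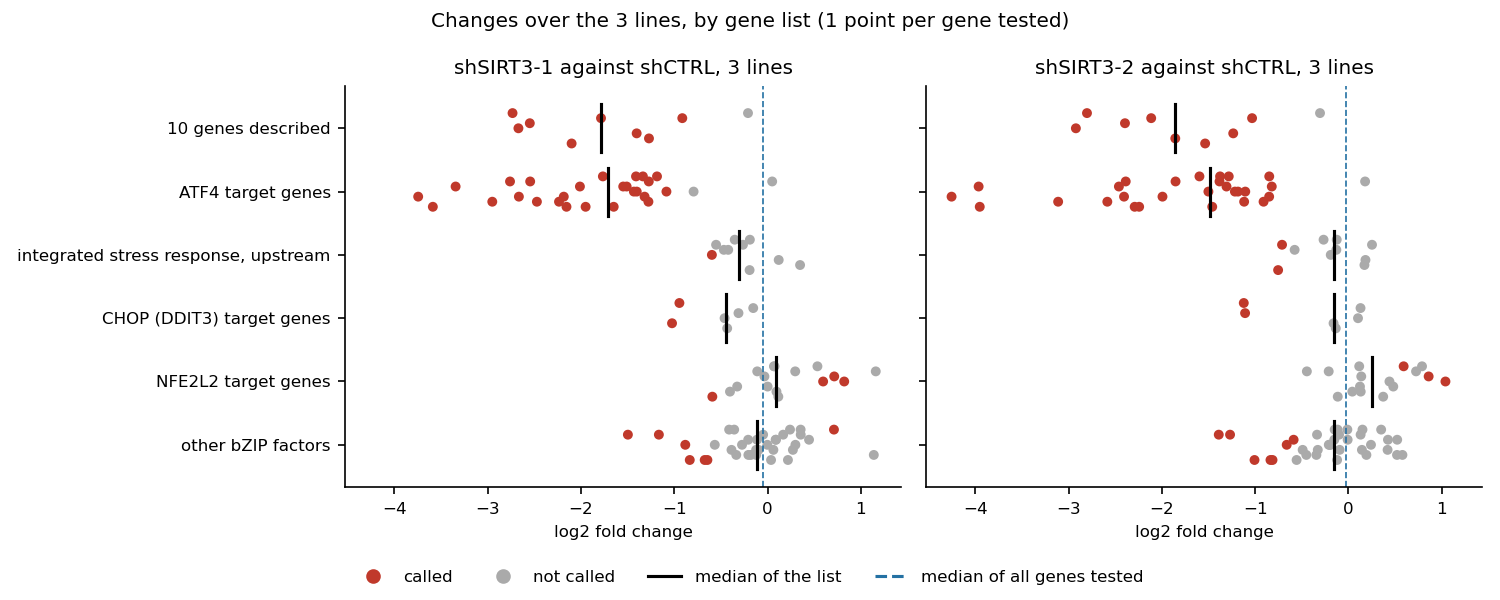
Log2 fold change over the 3 lines (x axis) of each gene tested, by list (y axis), in a panel for each hairpin, red where called, with the median of each list as a black line and that of all genes tested as a dashed line. The medians of the 10 genes and of the ATF4 targets lie between −1.86 and −1.48, and those of the other 4 lists drawn between −0.45 and 0.25.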

How the data were processed

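RNA-seq values of 27 libraries were analysed. The authors prepared TruSeq libraries from total RNA, sequenced paired ends, aligned to hg19 with STAR (per the labels) and annotated reads to RefSeq genes with Rsubread; tool versions are not given in the sources used here. The values deposited by the authors are named FPKM, yet 100% of values in every library were multiples of a single step (tolerance 0.01 reads) whatever the length of the gene, and they were treated as CPM. Their sum was 40.3% to 45.6% of the total to which CPM are scaled. Division by the step gave the reads of each gene, with a median of 45669254 reads on genes in a library.

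Values were tested as log2(CPM + 0.1) with limma 3.58.1 in R 4.3.3 (variance trend, genes at 1 CPM or more in at least 3 of the libraries fitted, fold change above 1.5 and Benjamini-Hochberg adjusted p under 0.05 over all genes tested). The fit over the 3 lines had terms for line and hairpin, as in the study's additive design. Each line was also fitted alone, the control libraries were compared between lines, and line by hairpin interactions were tested by F test. A fold change on this scale understates the change of low genes. The genes and lists were chosen with earlier results of these data known. The lists were ATF4 targets, upstream genes of the integrated stress response, CHOP targets, NFE2L2 targets, other bZIP factors, TRIB1 and TRIB2, and B cell, T cell and myeloid markers. Named genes were the 10 members, SIRT3, up to 4 genes per list called with both hairpins with the largest mean change, PSAT1, and the 3 genes most like ATF4, DDIT3, TRIB3 and CEBPG. Other genes named from the lists were chosen after their values were seen. A further B cell marker is not reported here.

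Alternatives were a replicate block, no filter, pseudocounts of 1 and 0.01, median-ratio scaling, quantile normalization, and leaving out replicates or lines. edgeR 4.0.16 (quasi-likelihood) on the recovered reads, leaving out HBL1 shSIRT3-1 replicate 3 and the hairpin comparison within lines were added after seeing the data. The fits were tested on simulated data. Motifs were searched with Python 3.11.15 and pysam 0.24.0, and matplotlib 3.10.9 drew the figures.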

Additional observations from a re-analysis of the deposited data

Results flagged for a closer look

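The response to the hairpins differed between the cell lines for 4 genes by the F test on the interaction terms (limma with Benjamini-Hochberg adjustment over 13076 genes), with an adjusted p of 0.041 for ATF4, 0.0096 for ATF5, 0.033 for CEBPB and 2.5e-06 for JDP2. For JDP2 the log2 fold changes with shSIRT3-1 and shSIRT3-2 were −4.25 and −4.44 for Karpas422 libraries, −0.34 and 0.15 for OCI-Ly1 libraries, and −1.71 and −0.32 for HBL1 libraries. For ATF5 they were −3.93 and −3.88, −1.29 and −0.93, and −2.42 and −2.37. Calls for this difference depended on the libraries used, and 41.8% of all genes tested passed the same test.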

How the results depend on the processing

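The 8 genes lower with each hairpin over the 3 lines stayed between 7 and 8 under the alternatives run, and the count lower with both between 6 and 8. In OCI-Ly1 the count against shCTRL stayed at 0 under 11 alternatives with each hairpin. Other counts moved, and the cause was not tested. The number of genes whose response differed between lines was 2 with edgeR, 8 without OCI-Ly1 shCTRL replicate 2 and 1 to 8 when replicates were left out. The count for HBL1 against OCI-Ly1 controls was 3 with edgeR, 3 with no filter and 2 to 7 with replicates left out, and for Karpas422 against OCI-Ly1 it was 4 with no filter and 2 to 8. The count for HBL1 against Karpas422 controls was 2 at a pseudocount of 1, 4 without OCI-Ly1 shCTRL replicate 2 and 0 to 4 over replicates left out. Between hairpins it was 1 over the 3 lines without Karpas422 (JDP2) and 1 without OCI-Ly1 (DDIT3). In Karpas422 it was 1 at a pseudocount of 1, 0 with no filter and 0 to 4 with replicates left out, in OCI-Ly1 0 to 1 and in HBL1 0 to 2. ATF4 targets called with shSIRT3-2 ranged from 16 to 27.

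Signs turned only for differences that were not called. For ATF3 between hairpins over the 3 lines the log2 difference was 0.02 with edgeR, 0.17 at a pseudocount of 1, 0.13 after quantile normalization, 0.46 without Karpas422, 0.17 without OCI-Ly1 and −0.29 to 0.06 with replicates left out. For ATF4 it was 0.06 without Karpas422, and for ATF5 it ranged from −0.16 to 0.38. With replicates or the OCI-Ly1 control left out, the change with shSIRT3-1 in OCI-Ly1 ranged from −0.74 to 0.49 for DDIT3, −1.39 to 0.02 for TRIB3 and −0.30 to 0.10 for NFE2L2 (0.08 without that control), and with shSIRT3-2 from −1.60 to 0.24 for ATF5 and −0.03 to 0.43 for JDP2. Between controls it ranged from −0.30 to 0.03 for ATF4 (HBL1 against Karpas422) and −0.19 to 0.16 for NFE2L2 (HBL1 against OCI-Ly1).

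The replicate numbers did not meet the rule for pairing, since 26 of 27 pairs of libraries with the same number had deviations correlated above 0.1 and every pair would have had to. The exception was a Karpas422 pair (r = 0.014). The mean r was 0.32 for these pairs and −0.14 for 54 pairs with different numbers, of which 12 were above 0.1, a hint from the data that libraries with the same number share something. With the replicate block the 3-line counts were 8, 8 and 8 and the OCI-Ly1 counts 0 and 0. Single calls changed for ATF4 in HBL1 against OCI-Ly1 controls (0.70, adjusted p = 0.037) and ATF5 in HBL1 against Karpas422 (1.03, adjusted p = 0.048), which passed, and JDP2 in HBL1 against Karpas422 (0.66, adjusted p = 0.051), which did not.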
